A study of Mus musculus with 28 samples.

Results

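The glutathione S-transferase genes described here are the 7 mu-class genes Gstm1 to Gstm7, the alpha-class gene Gsta4, the pi-class gene Gstp1 and the theta-class gene Gstt1. These 10 genes, of 53342 Ensembl identifiers in each count table, were chosen by family name after results of these data were known. Their differences between genotypes and between fractions are therefore given as a description of each gene among all genes tested, and no count over the 10 is read as support for a pattern of the family. All 10 passed the filter on low counts in every comparison.

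The study compared cortical RNA of control (Ctrl) mice with that of mice lacking α2-Na/K ATPase in astrocytes (cKO), with 1 mouse per library, to ask which transcripts change when astrocytes lose this subunit of the sodium pump. The tissue was cerebral cortex. The cKO mice carried mGFAP-Cre, a recombinase driven by the mouse GFAP promoter, and 2 copies of the loxP-flanked α2-Na/K ATPase gene. The Ctrl mice were sex-matched littermates with the loxP/loxP or loxP/+ genotype, given without the driver, and the lines were on a C57BL/6J background. Bulk RNA-Seq was performed at postnatal day 17 (P17) and at P24, each with 4 Ctrl and 4 cKO mice. Translating ribosome affinity purification (TRAP-Seq) was performed at P24 on 3 Ctrl and 3 cKO mice that expressed an EGFP/Rpl10a ribosomal fusion protein in a Cre-dependent manner with mGFAP-Cre. For each of these mice the tagged ribosomes were immunoprecipitated (IP) and a part of the same lysate was kept as Input. The TRAP Ctrl mice are likewise given as loxP/loxP or loxP/+, and they need the driver to make the fusion protein. With the driver, the study gives loxP/loxP as cKO and loxP/+ as conditional heterozygous. The full genotype of the TRAP Ctrl mice is not stated. By these descriptions they differ from the bulk Ctrl mice in the driver. Recombination follows the GFAP promoter, so the groups model loss of the gene in the cells that this promoter marks.

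Glutathione S-transferases are soluble enzymes that join the thiol of glutathione to electrophilic compounds, among them products of lipid peroxidation and drugs, so that these can be exported. The mu-class genes lie side by side in a tandem cluster and their products assemble as dimers within the class. In the brain, astrocytes hold much of the glutathione and are known for high levels of mu-class enzymes.

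The 7 Gstm genes lie on mouse chromosome 3 within chr3:107895821-108044894 (GRCm38, the build that the files' MM10 genome names). Gstm5 is on the plus strand and the other 6 on the minus strand. Gstm5 (chr3:107895821-107898686), Gstm7 (chr3:107926334-107931817), Gstm6 (chr3:107938847-107943749), Gstm3 (chr3:107963696-107969283), Gstm2 (chr3:107981702-107986453), Gstm1 (chr3:108012255-108017973) and Gstm4 (chr3:108040408-108044894) follow each other in this order. The copies are close enough in sequence for reads to be placed on the wrong one. The same 60 coding bases of each copy are shown because they hold a stretch of Gstm1 that a processed pseudogene on another chromosome matches base for base. The sequences run 5′ to 3′ on the coding strand, and capitals mark bases that differ from Gstm1.
Gstm1, chr3:108016368-108016427 (minus), coding exon 5: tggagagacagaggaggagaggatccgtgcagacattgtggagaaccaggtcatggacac
Gstm2-ps1, chr5:116633245-116633304 (minus), pseudogene: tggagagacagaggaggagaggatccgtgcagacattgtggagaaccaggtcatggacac
Gstm6, chr3:107942173-107942232 (minus), coding exon 5: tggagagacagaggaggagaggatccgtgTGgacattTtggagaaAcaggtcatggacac
Gstm2, chr3:107985089-107985148 (minus), coding exon 5: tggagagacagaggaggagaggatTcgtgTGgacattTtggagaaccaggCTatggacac
Gstm3, chr3:107967615-107967674 (minus), coding exon 5: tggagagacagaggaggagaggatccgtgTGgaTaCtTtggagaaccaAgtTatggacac
Gstm7, chr3:107930314-107930373 (minus), coding exon 5: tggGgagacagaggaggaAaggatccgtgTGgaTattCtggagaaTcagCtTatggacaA
Gstm4, chr3:108043364-108043423 (minus), coding exon 5: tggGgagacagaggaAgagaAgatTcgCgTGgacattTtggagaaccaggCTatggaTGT
Gstm5, chr3:107897463-107897522 (plus), coding exon 5: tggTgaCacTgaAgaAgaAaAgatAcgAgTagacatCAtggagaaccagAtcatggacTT

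In this stretch Gstm1 had 60 of 60 bases in common with Gstm2-ps1, 56 with Gstm6, 54 with Gstm2, 53 with Gstm3, 50 with Gstm7, 47 with Gstm4 and 45 with Gstm5. Over the whole coding sequence, Gstm1 was 97.4% identical to Gstm2-ps1, 89.4% to Gstm3, 85.9% to Gstm2 and 70% to Gstm5, the most distant member of the class. Of the 50-base stretches in Gstm1 transcripts, 18.9% occurred in transcripts of another gene, most often Gstm2-ps1 (14.1%). The share was 28.8% in Gstm3, 5.65% in Gstm2, 5.97% in Gstm6, 0.532% in Gstm7 and 0% in Gstm4. In Gstm5 it was 9.44%, and the only partner was 4933431E20Rik, an antisense gene that overlaps the start of Gstm5. The strand setting of the counting is not given in the sources used here, so reads from this overlap cannot be told apart.

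The pi-class pair is closer still. Gstp1, at chr19:4035407-4037985 on the minus strand, and its neighbour Gstp2 had 98.1% identical coding sequences, and 33.7% of the 50-base stretches of Gstp1 also occurred in Gstp2. Printed here are 60 bases of coding exon 3 that both genes share and that the processed pseudogene Gstp-ps on chromosome 1 nearly matches, with a capital where a base differs from Gstp1.
Gstp1, chr19:4037317-4037376 (minus): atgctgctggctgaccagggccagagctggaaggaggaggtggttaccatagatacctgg
Gstp2, chr19:4041611-4041670 (minus): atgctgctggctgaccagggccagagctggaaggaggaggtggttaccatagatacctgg
Gstp-ps, chr1:192074336-192074395 (minus): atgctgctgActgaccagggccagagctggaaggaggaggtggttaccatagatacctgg

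Gsta4, at chr9:78182774-78209349 on the plus strand, and Gstt1, at chr10:75783813-75798584 on the minus strand, shared no 50-base stretch with another gene.

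Total counts on genes lay between 8855488 and 14575306 in the 16 bulk libraries and between 18433087 and 27242445 in the 12 TRAP-Seq libraries. In Ctrl mice all 7 astrocyte markers were enriched in IP over Input, by 2.40 to 4.62 on the log2 scale, and no neuron, oligodendrocyte or microglia marker was. The mural gene Pdgfrb (1.01) and the ependymal gene Foxj1 (1.84 on the log2 scale) were enriched too, whereas Rgs5 was at -0.15 and Ttr was lower at -2.78. The Input library of cKO mouse 1 stood apart for several members, as given beside each result. Fewer cells of a type and less RNA per cell cannot be told apart in these libraries.

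The family covered a wide range of levels in Ctrl cortex, and a few genes made up most of it. Per length, as RPKM (CPM, which are counts scaled to the library's TMM-adjusted total, divided by exonic length), Gstm1 was at 61.9 ± 7.58 in P24 bulk cortex and Gstm5 at 56.5 ± 4.34 (mean ± SD, 4 mice), and the values of these 2 genes overlapped between mice. Gstp1 followed at 44.8 ± 2.69 RPKM and Gsta4, which acts on the lipid peroxidation product 4-hydroxynonenal, at 11.7 ± 0.314 RPKM. The other 6 genes lay between 1.00 and 3.92 RPKM on average, of which Gstm7, Gstt1 and Gstm3 each overlapped the next in order. In Ctrl cortex at P17 the order began with Gstm5 (62.7 ± 8.74 RPKM), Gstp1 (46.2 ± 5.91) and Gstm1 (40.1 ± 5.09), again with overlap from each to the next. In the IP of Ctrl mice Gstm1 was at 624 ± 49.2 RPKM and Gstm5 at 504 ± 56.0 RPKM (3 mice), and no other member exceeded a mean of 76.4 RPKM. Values from different tables were scaled separately.

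**Figure D1:**
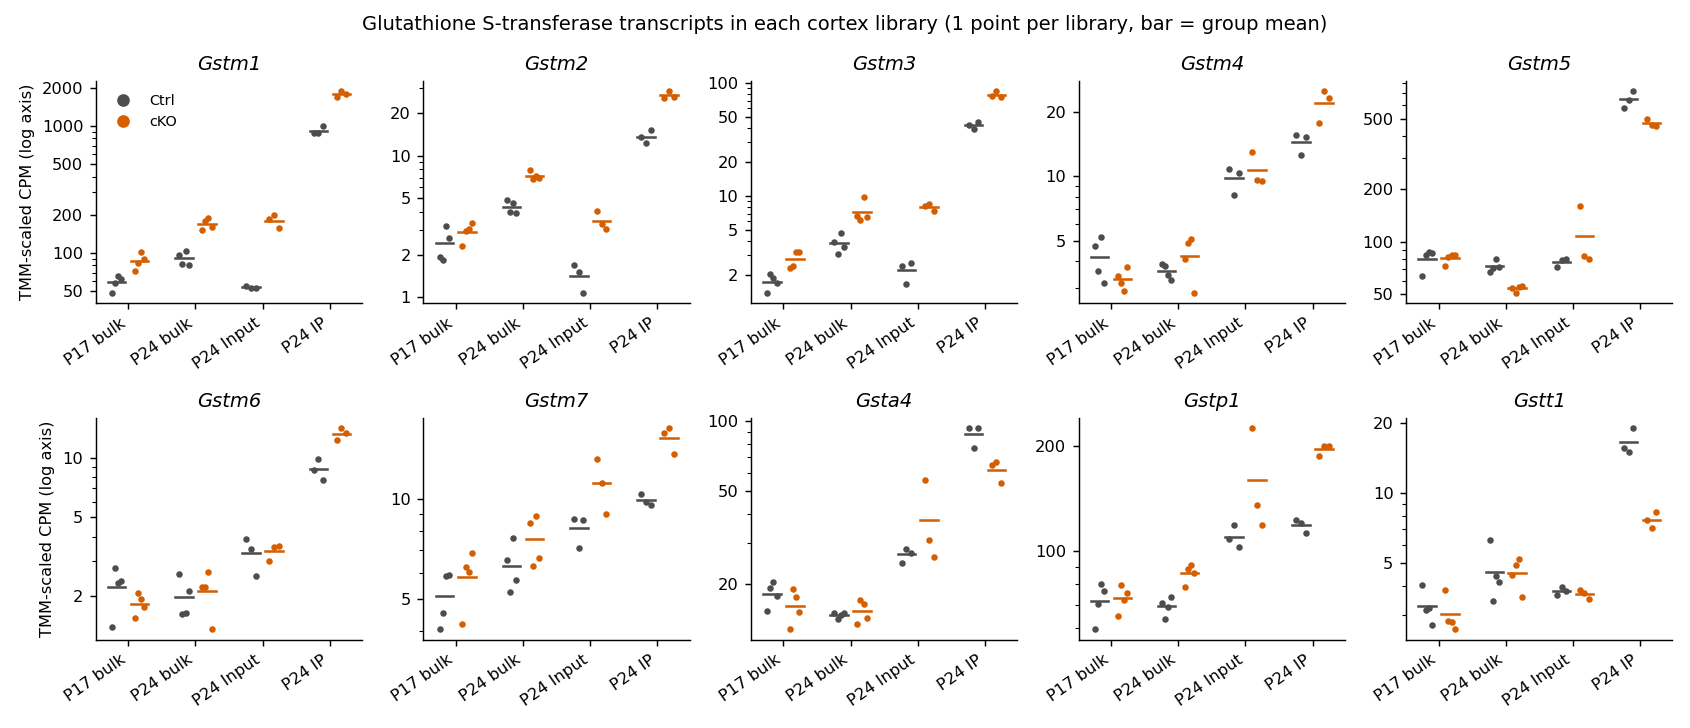
Level of each gene in every library as CPM scaled by TMM (log axis), with Ctrl in grey, cKO in orange and a bar at the group mean. Gstm1 was higher in every cKO library than in every Ctrl library of all 4 experiments. Gstm5 lay lower in cKO at P24 in bulk cortex and in IP, but not in Input.

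At P24 in bulk cortex, 3 mu-class transcripts and Gstp1 were upregulated in cKO mice and Gstm5 was downregulated. The count was 4 of 10 members higher, where 1.26% of the 22495 genes tested were higher, and 1 lower, where 0.462% were lower. The median log2 fold change was 0.25 over the members and 0.00 over all genes. The other 5 members did not pass the threshold of an adjusted p of 0.05.

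Gstm1, a major mu-class enzyme, was at 97.1, 82.4, 104 and 81.3 CPM in the 4 Ctrl mice and at 152, 179, 189.9 and 160.2 CPM in the 4 cKO mice at P24. All cKO values lay above all Ctrl values. Its log2 fold change was 0.90 ± 0.09 (SE), with an adjusted p of 0.000375 by the quasi-likelihood test of edgeR. The close copies Gstm2 and Gstm3 were far less abundant and had similar differences. Whether Gstm1 reads placed on these copies had a part in this was not tested. Gstm2 was at 4.85, 3.97, 4.65 and 3.94 CPM in Ctrl against 7.96, 6.84, 7.16 and 6.93 CPM in cKO mice (log2 fold change 0.73 ± 0.12, adjusted p = 0.00674, edgeR). Gstm3 was at 3.97, 3.09, 4.73 and 3.57 CPM in Ctrl against 6.67, 6.21, 9.88 and 6.50 CPM in cKO mice (log2 fold change 0.93 ± 0.18, adjusted p = 0.0219, edgeR). Neither gene overlapped between the groups. Of all genes tested, 4.25% lay above Ctrl in cKO mice and 3.41% below without overlap. The call for Gstm3 was lost when Ctrl mouse 1, 2 or 4 was left out, with an adjusted p of 0.0620, 0.0783 and 0.0705 in edgeR.

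Gstm5 moved the other way from Gstm1 to Gstm3. It was at 66.8, 70.5, 79.9 and 71.4 CPM in Ctrl mice and at 54.2, 51.2, 55.4 and 56.0 CPM in cKO mice, without overlap. Its log2 fold change was -0.41 ± 0.06 (adjusted p = 0.00534, edgeR). The antisense gene 4933431E20Rik that overlaps it was at 70.2 to 80.5 CPM in Ctrl and 77.1 to 85.8 CPM in cKO mice. Gstp1 was at 70.7, 63.8, 68.9 and 73.8 CPM in Ctrl against 78.4, 88.8, 90.8 and 86.3 CPM in cKO mice (log2 fold change 0.31 ± 0.06, adjusted p = 0.0256, edgeR). Leaving out 1 of 6 of the 8 mice ended the Gstp1 call, with an adjusted p up to 0.0942 in edgeR, and so did a single fit of both ages (0.0755). In exact two-sided permutation tests of CPM, each of these 5 genes gave p = 0.0286, the smallest value that 4 mice against 4 allow. Any gene whose groups do not overlap gets this value.

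The remaining members overlapped between the genotypes in P24 bulk cortex. Gsta4 was at 14.2 to 15.1 CPM in Ctrl and 13.5 to 17.2 CPM in cKO mice, with a log2 fold change of 0.05 and a 95% interval from -0.11 to 0.22. Gstt1 lay at 3.46 to 6.32 CPM in Ctrl and 3.57 to 5.22 CPM in cKO mice (interval of the log2 fold change -0.39 to 0.36). Gstm4, Gstm6 and Gstm7 had log2 fold changes of 0.22, 0.09 and 0.28 with adjusted p from 0.478 to 0.926 in edgeR. The astrocyte markers did not move in one direction in these libraries. Of 7, Gfap (2.51), Aqp4 (1.25) and Aldh1l1 (1.18 on the log2 scale) were upregulated and Slc1a2 and Slc1a3 were downregulated, with a summed level of 3695 to 4335 CPM in Ctrl and 4020 to 4176 CPM in cKO mice. No marker of neurons, oligodendrocytes, microglia or vessels passed the test. The part of these shifts in the differences of the members was not tested.

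**Figure D2:**
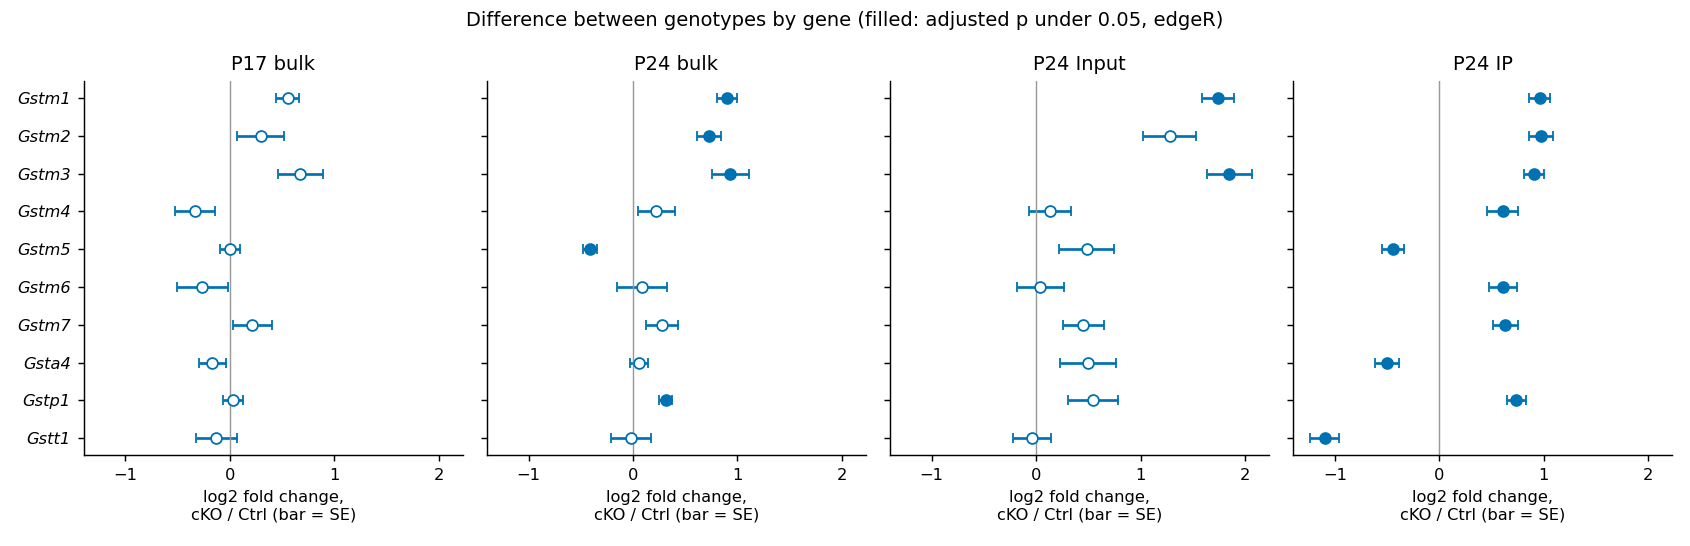
Log2 fold change of cKO against Ctrl with its SE for each gene in the 4 experiments, where filled points have an adjusted p under 0.05 (edgeR). Gstm1 to Gstm3 lie to the right in all 4 panels, whereas Gstm5, Gsta4 and Gstt1 lie to the left in IP.

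At P17, a week before, no member passed the test, where 0.0943% of 21201 genes did in either direction. At an unadjusted p of 0.05, 2 members passed, Gstm1 and Gstm3, where 4.00% of all genes did. Gstm1 was at 48.8, 58.5, 66.2 and 62.6 CPM in Ctrl mice and at 72.1, 83.4, 101 and 89.5 CPM in cKO mice. These groups did not overlap, and 1.74% of all genes likewise lay above Ctrl without overlap. The log2 fold change of Gstm1 was 0.55 ± 0.11, with an adjusted p of 0.166 in edgeR. Same-numbered P17 libraries deviated together, and blocking on the mouse number brought the adjusted p of Gstm1 to 1.04e-06 in edgeR. DESeq2 gave it an adjusted p of 0.000802 and called 1 member.

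Gstm3 was at 1.4, 2.04, 1.88 and 1.71 CPM in Ctrl and at 2.31, 2.40, 3.24 and 3.23 CPM in cKO mice at P17, without overlap, from 15 to 31 counts a library. Its log2 fold change was 0.67 ± 0.21 (adjusted p = 0.856, edgeR). The exact two-sided permutation test gave p = 0.0286 for both Gstm1 and Gstm3. Any gene without overlap gets this value, so it adds nothing to the absence of overlap. Gstm5, lower in cKO mice a week later, was at 63.5, 83.6, 86.7 and 86.6 CPM in Ctrl and at 72.6, 81.5, 83.5 and 83.5 CPM in cKO mice at P17. Its log2 fold change was 0.00, with a 95% interval from -0.19 to 0.19, and the groups overlapped. Gstp1 (0.03), Gsta4 (-0.17), Gstt1 (-0.13), Gstm2 (0.30), Gstm4 (-0.34), Gstm6 (-0.27) and Gstm7 (0.21 on the log2 scale) also overlapped. Of the astrocyte markers, Gfap alone passed at P17, at a log2 fold change of 1.03.

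The difference between ages was tested as an interaction of age and genotype. No member passed, where 0.0470% of 23395 genes did, and 4 members had an unadjusted p under 0.05, where 6.32% of all genes had. The lowest adjusted p was 0.491 for Gstm5, whose log2 difference between P24 and P17 was -0.42 ± 0.12. For Gstm1 it was 0.34 ± 0.16 (adjusted p = 0.776, edgeR). Each age was a table of its own, so that age cannot be told apart from how that set of libraries was made.

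In the IP RNA at P24, all 10 members differed between cKO and Ctrl mice. The IP also held RNA of other cells. Neuron markers summed to 1963 to 2445 CPM in Ctrl IP, against 3738 to 4347 CPM in Ctrl Input. In Ctrl mice Gstm7 (0.27) and Gstp1 (0.09 on the log2 scale) did not pass as enriched in IP over Input. For such genes the part of astrocytes in the IP difference was not tested. In IP, 7 members were higher, where 11.6% of the 23864 genes tested were higher, and 3 were lower, where 8.42% were lower. None of the 10 overlapped between the genotypes, where 19.0% of all genes lay above Ctrl in cKO mice and 18.7% below without overlap. The median log2 fold change was 0.62 over the members and -0.01 over all genes. Scaling by library size alone moved the median of all genes by -0.11 and turned 2772 higher and 2010 lower genes into 2002 and 3529, while all 10 members kept their direction and their call.

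Gstm1 was the most abundant of the family in IP. It was at 876, 879 and 1003 CPM in the 3 Ctrl mice and at 1686, 1878 and 1778 CPM in the 3 cKO mice, a log2 fold change of 0.96 ± 0.10 (adjusted p = 0.000204, edgeR). Gstm2 was at 13.4, 12.3 and 15.1 CPM in Ctrl and at 25.4, 28.5 and 25.8 CPM in cKO mice (0.97 ± 0.12, adjusted p = 0.000458, edgeR). Gstm3 was at 42.8, 39.2 and 44.8 CPM in Ctrl and at 76.3, 84.8 and 75.4 CPM in cKO mice (0.91 ± 0.10, adjusted p = 0.000258, edgeR). None of the 3 overlapped between genotypes.

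The other 3 copies on the minus strand were higher too. Gstm4 was at 15.6, 12.6 and 15.2 CPM in Ctrl and at 17.7, 24.9 and 23.1 CPM in cKO mice (log2 fold change 0.61 ± 0.15, adjusted p = 0.0143, edgeR). Gstm6 was at 8.66, 9.82 and 7.69 CPM in Ctrl and at 12.3, 14.1 and 13.3 CPM in cKO mice (0.61 ± 0.13, adjusted p = 0.00909, edgeR). Gstm7 was at 10.4, 9.82 and 9.65 CPM in Ctrl and at 15.9, 16.5 and 13.7 CPM in cKO mice (0.63 ± 0.12, adjusted p = 0.00463, edgeR). In none of these did the groups overlap. Gstp1 was at 122, 119.9 and 112 CPM in Ctrl and at 187, 199.9 and 200.3 CPM in cKO mice (0.74 ± 0.09, adjusted p = 0.000532, edgeR).

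Gstm5, Gsta4 and Gstt1 were lower in the IP of cKO mice. Gstm5 was at 576, 639 and 719 CPM in Ctrl and at 497, 462 and 457 CPM in cKO mice (log2 fold change -0.44 ± 0.11, adjusted p = 0.0141, edgeR). Gsta4 was at 93.8, 76.9 and 93.7 CPM in Ctrl and at 64.8, 67.1 and 54.4 CPM in cKO mice (-0.50 ± 0.11, adjusted p = 0.0113, edgeR). Gstt1, a theta-class enzyme that acts on small halogenated compounds, had the largest fold of the 10. It was at 15.5, 14.9 and 19.0 CPM in Ctrl and at 7.64, 7.08 and 8.27 CPM in cKO mice (-1.10 ± 0.14, adjusted p = 0.00061, edgeR). In bulk cortex at P24 neither Gsta4 nor Gstt1 had passed.

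With all 12 TRAP-Seq libraries in a single fit, 7 of the 10 calls in IP remained past the threshold, and Gstm4 (adjusted p = 0.0587), Gstm5 (0.224) and Gsta4 (0.185) did not in edgeR. Gstm5 also lost its call without IP cKO mouse 2 or IP Ctrl mouse 3, and Gstm4 without IP mouse 2 of either genotype. Of the 7 astrocyte markers Gfap was upregulated in IP and Slc1a2 and Slc1a3 were downregulated, and their summed level was 9812 to 12364 CPM in Ctrl and 10090.5 to 12919 CPM in cKO mice. Among the markers of other cells, the pericyte gene Rgs5 (0.88) was upregulated and the neuronal gene Syp (-0.43) and the fibroblast gene Col1a1 (-1.25 on the log2 scale) were downregulated. Whether these shifts had a part in the differences of the members was not tested.

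In the Input RNA of the same mice, Gstm1 and Gstm3 were upregulated in cKO mice and no member was downregulated. These are 2 of 10 members higher, where 0.0923% of 23828 genes were higher. Gstm1 was at 55.5, 53.3 and 53.1 CPM in Ctrl against 184, 199 and 158 CPM in cKO mice (log2 fold change 1.74 ± 0.15, adjusted p = 0.00649, edgeR). Gstm3 was at 2.41, 1.67 and 2.57 CPM in Ctrl against 8.14, 8.47 and 7.45 CPM in cKO mice (log2 fold change 1.85 ± 0.22, adjusted p = 0.0307, edgeR). Gstm2 was at 1.69, 1.5 and 1.08 CPM in Ctrl and at 4.09, 3.28 and 3.04 CPM in cKO mice (1.28 ± 0.26, adjusted p = 0.250, edgeR). All 3 were apart between the groups, as were Gstm5, Gstm7 and Gstp1, so that 6 of 10 lay above Ctrl without overlap, where 6.59% of all genes did. For Gstm5, Gstm7 and Gstp1 the gap between the groups was under 1 CPM. The calls rested on each Ctrl library, since leaving out any Ctrl mouse left no member past the threshold, with an adjusted p of 0.0989 to 0.141 for Gstm1 at a log2 fold change of 1.73 to 1.77. This loss was not particular to the members, as the calls over all genes then fell from 26 to 4 or 5. Gstm3 also lost its call without Input cKO mouse 2 (adjusted p = 0.074, edgeR).

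The Input library of cKO mouse 1 held far more Gstm5, Gsta4 and Gstp1 than the other 2 cKO Inputs. Gstm5 was at 71.4, 78.9 and 79.6 CPM in Ctrl Inputs and at 159, 82.5 and 79.9 CPM in cKO Inputs. Gsta4 was at 24.7, 28.5 and 27.4 CPM in Ctrl and at 56.1, 31.1 and 26.2 CPM in cKO mice. Gstp1 was at 108, 119 and 103 CPM in Ctrl and at 226, 136 and 119 CPM in cKO mice. Gstm5 and Gsta4 were thus not lower in cKO Input, unlike in IP. Gstm5 also differed from P24 bulk cortex in this, with a log2 fold change of -0.41 there and 0.49 ± 0.26 in Input (adjusted p = 0.812, edgeR). Without this library 2 members passed, as with it. Gstm4, Gstm6 and Gstt1 overlapped between the genotypes, and Gstm7 lay at 7.13 to 8.69 CPM in Ctrl and 9.01 to 13.3 CPM in cKO Inputs (0.45 ± 0.20, adjusted p = 0.812, edgeR). In Input the astrocyte markers also differed, with a summed level of 931 to 1072 CPM in Ctrl and 1409 to 1934 CPM in cKO mice and 1 of 7, Aldoc (0.92 on the log2 scale), past the test. Gfap, at a log2 fold change of 1.53, did not pass (adjusted p = 0.0504, edgeR). The part of the marker shift in the Input differences was not tested. In P24 bulk cortex the same markers summed to 3695 to 4335 CPM in Ctrl and 4020 to 4176 CPM in cKO mice. Input and bulk cortex were thus unlike in their markers. The part of this in the contrast of Gstm5 between them was not tested.

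Setting IP against Input in Ctrl mice showed how far each transcript is concentrated on astrocyte ribosomes. Of the 10 members 8 were higher in IP, where 35.3% of 24385 genes were higher, and none was lower. Gstm3 (log2 fold change 4.23 ± 0.15) and Gstm1 (4.08 ± 0.11) led, followed by Gstm2 (3.23 ± 0.19) and Gstm5 (3.06 ± 0.12). The astrocyte markers spanned 2.40 to 4.62 in the same comparison. Gstt1 (2.10 ± 0.15), Gsta4 (1.71 ± 0.11) and Gstm6 (1.39 ± 0.19) were enriched by less, and Gstm4 by 0.55 ± 0.14. The 2 members that did not pass were Gstm7 (0.27 ± 0.13, adjusted p = 0.0781, edgeR) and Gstp1 (0.09 ± 0.10, adjusted p = 0.396, edgeR), so that Gstp1 was about as abundant in IP as in Input.

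**Figure D3:**
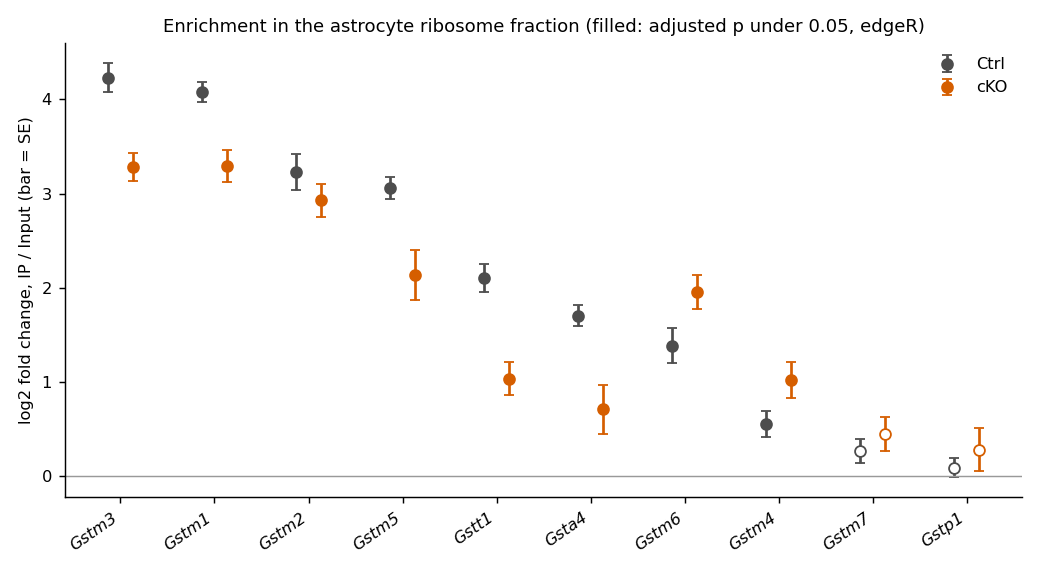
Log2 fold change of IP against Input with its SE in Ctrl (grey) and cKO (orange) mice, ordered by the Ctrl value, where filled points have an adjusted p under 0.05 (edgeR). In Ctrl mice the values run from 4.23 for Gstm3 to 0.09 for Gstp1, and Gstm1, Gstm2, Gstm3, Gstm5, Gsta4 and Gstt1 have lower values in cKO mice, with no member past the interaction test.

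In cKO mice 8 members were again higher in IP than in Input, where 27.8% of 24011 genes were higher, and Gstm7 and Gstp1 again did not pass. The log2 enrichment was 3.29 ± 0.17 for Gstm1, 3.28 ± 0.15 for Gstm3, 2.93 ± 0.17 for Gstm2 and 2.14 ± 0.26 for Gstm5. It was 1.95 ± 0.18 for Gstm6, 1.04 ± 0.18 for Gstt1, 1.02 ± 0.19 for Gstm4 and 0.71 ± 0.26 for Gsta4. The Gsta4 call in cKO mice was lost when any one of 5 libraries was left out, and its value was 1.11 without the Input of cKO mouse 1. Without that library all 10 members passed, with Gstp1 at 0.61.

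The difference in enrichment between genotypes was tested as an interaction of fraction and genotype, and no member passed, where 0.0582% of 25768 genes did. The lowest adjusted p were 0.102 for Gstt1 (-1.06 ± 0.21), 0.118 for Gstm1 (-0.79 ± 0.17) and 0.127 for Gstm3 (-0.95 ± 0.21 on the log2 scale, edgeR). At an unadjusted p of 0.05, 6 members passed, where 8.74% of all genes did. DESeq2 and the likelihood ratio test each called these 3 genes. The edgeR fit called 3 members when the Input of cKO mouse 1 was left out. Their adjusted p was then 0.0257, 0.0232 and 0.0315 for Gstt1, Gstm1 and Gstm3. These fits do not pair IP with Input of the same mouse. With the mouse as block no member passed, and the adjusted p was 0.252, 0.283 and 0.252 for these genes in edgeR. The calls of these 3 genes thus turned on the Input of cKO mouse 1 and on the test. Their log2 values were close to the above without this library, at -1.04 for Gstt1, -0.77 for Gstm1 and -0.93 for Gstm3. Over all genes, the fit without it called 432, against 15 with it.

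The balance between Gstm1 and Gstm5, the 2 abundant mu-class genes, was read within each library, where it does not depend on scaling. This ratio was picked after the values were seen and is given without a test. In P24 bulk cortex there were 0.687 to 0.879 Gstm5 counts per Gstm1 count in Ctrl and 0.286 to 0.358 in cKO mice. In IP the ratio was 0.658 to 0.727 in Ctrl and 0.246 to 0.295 in cKO mice. At P17 it was 1.30 to 1.43 in Ctrl and 0.824 to 1.01 in cKO mice, where Gstm5 itself was level. In Input it was 1.29 to 1.5 in Ctrl and 0.415 to 0.863 in cKO mice, with the highest cKO value from mouse 1. The genotypes did not overlap in any of the 4 experiments. In P24 bulk cortex and in IP this follows from the levels, where Gstm1 lay above Ctrl and Gstm5 below without overlap. It adds nothing to those levels, and no share over other gene pairs was computed.

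**Figure D4:**
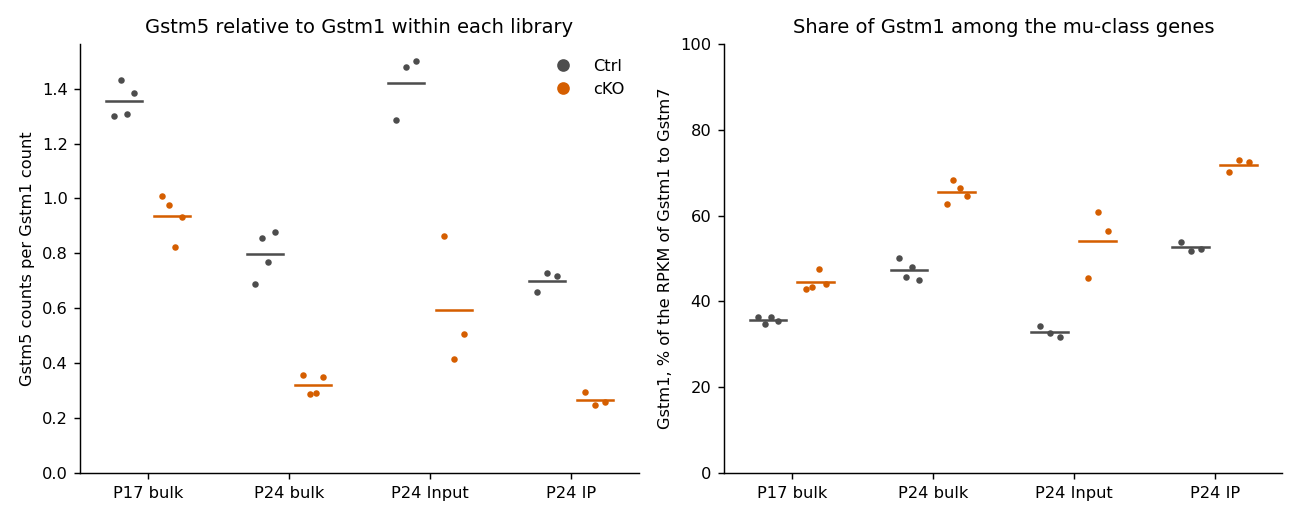
Gstm5 counts per Gstm1 count (left) and the share of Gstm1 in the summed RPKM of Gstm1 to Gstm7 (right) in every library, with bars at group means. In IP the share of Gstm1 was 51.8% to 53.8% in Ctrl and 70.1% to 72.8% in cKO mice.

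Per length, Gstm1 made up a median of 46.9% of the summed mu-class RPKM in P24 bulk Ctrl cortex and 65.6% in cKO cortex. The share of Gstm5 was 39.6% to 45.6% in Ctrl and 22.4% to 26.1% in cKO mice. When the counts of the 7 genes and of Gstm2-ps1 were added into a single feature, so that reads exchanged among them no longer matter, its log2 fold change was 0.52 ± 0.08 in P24 bulk cortex, 0.28 ± 0.10 at P17, 0.60 ± 0.10 in IP and 1.11 ± 0.15 in Input. The sum was above 0 in each experiment and below the value of Gstm1 in each. Pseudogenes under other names, such as Gm8834, were not in the sum, so reads exchanged with them can still matter.

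Counts of the close copies were set against those of the members they resemble. In IP there were 24.3 to 25.6 Gstm2-ps1 counts per 100 Gstm1 counts in Ctrl and 23.6 to 24.6 in cKO mice, and over all 28 libraries 18.4 to 38.5. Gstm2-ps1 was at 224, 214 and 254 CPM in Ctrl IP and 415, 443 and 431 CPM in cKO IP. The lowest of these ratios was in the Input of cKO mouse 1. Gm8834, a processed pseudogene on chromosome 10 that shares 50-base stretches with Gstm3 and Gstm1, had 214 to 228 counts per 100 Gstm3 counts in IP, more than Gstm3 itself. For Gstp1, there were 71.4 to 89.1 Gstp2 counts and 68.0 to 79.3 Gstp-ps counts per 100 Gstp1 counts over all libraries. How many of these reads came from the parent gene was not tested, so the levels of Gstm1, Gstm3 and Gstp1 are uncertain by the reads their copies hold. Among the members, Gstm3 counts per Gstm1 count were 0.0446 to 0.0489 in Ctrl IP and 0.0424 to 0.0453 in cKO IP. Gstm2 counts per Gstm1 count were 0.0140 to 0.0153 and 0.0145 to 0.0152. Over all 28 libraries the ratios were 0.0273 to 0.0520 for Gstm3 and 0.0140 to 0.0525 for Gstm2. Reads of Gstm1 counted on Gstm2 or Gstm3 were not separated, so their differences are uncertain too.

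**Figure D5:**
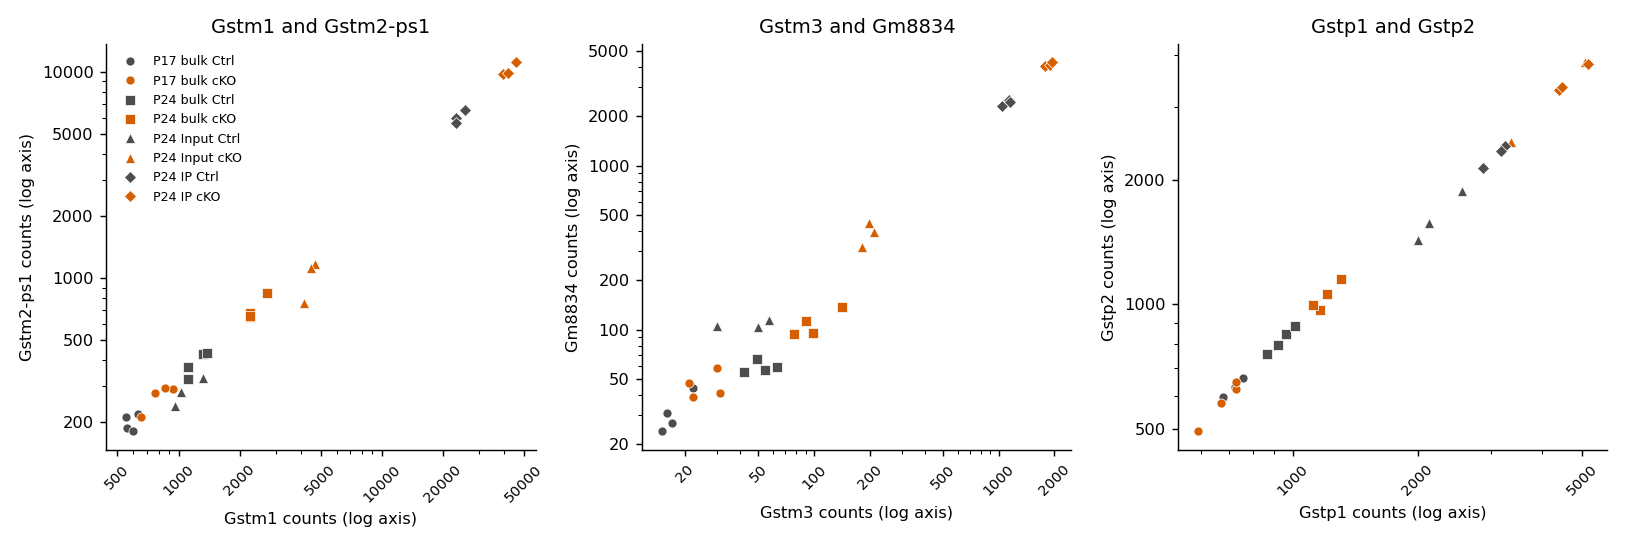
Counts of Gstm1 and Gstm2-ps1, Gstm3 and Gm8834, and Gstp1 and Gstp2 in all 28 libraries (log axes), by experiment and genotype. Gstm2-ps1 lies at 18.4 to 38.5 counts per 100 Gstm1 counts, Gm8834 at 93.7 to 350 per 100 Gstm3 counts and Gstp2 at 71.4 to 89.1 per 100 Gstp1 counts.

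Of 22 other glutathione transferases and related proteins, 16 passed the filter in P24 bulk cortex and none passed the test in edgeR, with 4 at an unadjusted p under 0.05, where 13.1% of all genes were. None passed at P17 or in Input either, with 0 and 4 at an unadjusted p under 0.05, where 4.00% and 4.03% of all genes were. In IP 18 were tested, of which 8 were higher and 1 was lower, where 11.6% and 8.42% of all genes were, at a median log2 fold change of 0.27. The 4 with the largest folds were Gsta3, an alpha-class enzyme (1.98 ± 0.50), Gsto1, an omega-class enzyme (1.03 ± 0.09), Gstt3, a theta-class enzyme (-0.89 ± 0.18), and Ptges, a prostaglandin E synthase (0.78 ± 0.17 on the log2 scale). Gsta3 rested on low levels, at 0.453 to 1.92 CPM in Ctrl and 1.97 to 6.06 CPM in cKO mice, whereas Gsto1 was at 24.3 to 26.9 and at 49.6 to 52.4 CPM. Gstt3 (7.48 to 10.9 CPM in Ctrl and 4.44 to 5.78 CPM in cKO IP) had the only lower value past the test. In IP against Input of Ctrl mice, 10 of the 18 were higher and 3 lower, where 35.3% and 35.7% of all genes were, led by the microsomal enzyme Mgst1 (4.50 ± 0.24) and the kappa-class enzyme Gstk1 (4.12 ± 0.14).

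Of 28 genes that make, recycle, use or export glutathione, 27 were tested in P24 bulk cortex and Slc3a2 alone passed. Slc3a2, the heavy chain of the exchanger that brings in cystine, was at 77.5 to 82.3 CPM in Ctrl and 92.5 to 113 CPM in cKO mice (0.39 ± 0.06, adjusted p = 0.00856, edgeR). In IP 11 of 25 were higher and 1 was lower, where 11.6% and 8.42% of all genes were, at a median log2 fold change of 0.29. The 4 with the largest folds were Chac1, which degrades glutathione (1.42 ± 0.24), Esd, a thioesterase of a glutathione adduct of formaldehyde (1.11 ± 0.12), Gsr, which regenerates glutathione from its oxidized form (1.09 ± 0.11), and the peroxidase Gpx1 (1.08 ± 0.17 on the log2 scale). Gsr was at 39.0 to 41.0 CPM in Ctrl IP and 74.3 to 95.1 CPM in cKO IP. Chac1 was low, at 3.06 to 4.45 CPM in Ctrl IP and 6.23 to 11.9 CPM in cKO IP. In Ctrl Input Chac1 was at 9.79 to 10.9 CPM, above its IP level, and Gsr at 42.4 to 43.3 CPM. Gpx1 was at 55.6 to 67.1 CPM in Ctrl IP and 55.9 to 67.8 CPM in Ctrl Input. Esd was at 51.1 to 54.8 and 43.0 to 50.6 CPM. None passed at P17 or in Input in edgeR, with 1 in each at an unadjusted p under 0.05, where 4.00% and 4.03% of all genes were. In Ctrl mice 13 of 25 were higher in IP than in Input and 7 lower, where 35.3% and 35.7% of all genes were, with Gpx8, a peroxidase of the endoplasmic reticulum, at 3.49 ± 0.22 and Abcc1, an exporter of glutathione conjugates, at -1.92 ± 0.21.

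The genes whose pattern was most like that of Gstm1 over the 16 bulk libraries, after the mean of each age was subtracted, were the pseudogene Gstm2-ps1 (Pearson r = 0.975 of log2 CPM), the fatty acid desaturase gene Fads1 (0.965), the predicted gene Gm6665 (0.964), Pea15a (0.957) and Tmem176b (0.953). The points share their genotype difference, and Gstm2-ps1 and Gm6665 hold 50-base stretches of Gstm1. Among the members Gstm3 had r = 0.944, Gstm2 0.887, Gstp1 0.768 and Gstm7 0.656, while Gstm5 had r = -0.446. Over the 6 IP libraries, after the mean of each genotype was subtracted, the leading genes were Pbld2 and Arhgap27 (both r = 0.998), Gm6485 (0.997), Anxa7 and Tmem8b (both 0.996). With so few libraries and 19913 genes such values describe these libraries alone, and Gstm2 had r = 0.900 and Gstm5 0.506 there.

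The start-site windows of the genes were searched because the members moved in 2 directions. RefSeq windows (GRCm38.p6) of 250 bases before to 50 after a start matched 9 of the 10 members, with 14 windows. The core of the antioxidant response element, TGACNNNGC on either strand, occurred in 2 of these 14 windows (14.3%) and in 12.4% of all 32851 windows. The 2 matches were in Gstm5 and in Gstm7. Gstm5 was lower in cKO mice at P24 in bulk cortex and in IP, but not at P17 or in Input. Gstm7 was higher in cKO mice in IP. Both matches are shown with the core in capitals.
Gstm5, chr3:107895797-107895835 (plus): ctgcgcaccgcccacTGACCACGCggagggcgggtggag
Gstm7, chr3:107931720-107931758 (minus): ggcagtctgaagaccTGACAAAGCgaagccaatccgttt

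The AP-1 core TGANTCA, which shares its first 3 letters with the other core, occurred in 2 of the 14 windows and in 7.81% of all windows, in Gstm5 and in Gstp1. No match of one motif overlapped a match of the other. At P24 in bulk cortex and in IP, Gstp1 was called higher in cKO mice and Gstm5 lower, so the matches lie in genes of both directions. The Gstm5 match (TGACTCA) lies within chr3:107895663-107895699 on the plus strand. The Gstp1 match is shown in the same way.
Gstp1, chr19:4037965-4038001 (minus): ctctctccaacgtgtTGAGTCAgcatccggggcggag

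Neither motif was found in the windows of Gstm1, Gstm2 or Gstm3, which says only that these letters are not in these windows.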

How the data were processed

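The deposited counts are whole numbers of reads per Ensembl gene in 28 libraries of mouse cortex, in 3 tables (P24 bulk, P17 bulk, P24 TRAP-Seq). Per the labels and the methods of the study, the authors prepared oligo-dT libraries, sequenced the bulk set on an Illumina HiSeq instrument and mapped reads in Galaxy with RNA STAR to MM10 (GRCm38), and they compared groups with edgeR. The counter, its strand setting, its treatment of reads that match several genes and the annotation are not given in the sources used here. Such reads may be dropped, split or placed on 1 copy, which bears on Gstm1 to Gstm3, Gstm6, Gstp1 and the pseudogenes.

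Symbols and coordinates came from GENCODE release M21 (GRCm38), start-site windows from RefSeq. Gene levels were computed here as CPM with TMM factors and as RPKM over exonic length. Group differences were tested with the quasi-likelihood test of edgeR 4.0.16 in R 4.3.3, on genes that passed filterByExpr at its defaults (minimum count 10), with Benjamini-Hochberg adjustment over all genes tested and a threshold of 0.05. The SE is the absolute log2 fold change divided by the square root of F, and 95% intervals are normal intervals from this SE. CPM of single genes were also compared in the bulk sets with an exact two-sided permutation test over all arrangements of the mice. With 3 mice against 3 the smallest possible p is 0.1, so none was run for TRAP-Seq. The steps were tested on simulated data. The SE includes the spread between mice. Floors cover counting error only, and 3 counts correspond to 0.206 to 0.339 CPM in the bulk and 0.110 to 0.163 CPM in the TRAP-Seq libraries.

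The genes and both gene lists were chosen with earlier results of these data known. All 10 genes are named. From the 22 other transferases and the 28 genes of glutathione supply and use, at most the 4 past the threshold with the largest absolute fold changes are named in a comparison, and the 5 genes most like Gstm1 are named by Pearson's r. Alternatives were RLE factors, library size alone, DESeq2 1.42.0, the likelihood ratio test, no filter, a replicate block, a single fit of all libraries and leaving out each library. Replicate numbers come from the sample titles. Deviations of same-numbered libraries from their group means correlated at 0.208 to 0.483 in the P17 set and at 0.135 to 0.288 between genotypes in IP, over 0.1 in every pair, so in these sets the numbers were taken to pair the mice, as IP and Input of the same mouse are (-0.186 to 0.202). The values reported are from fits without the block, which was run as an alternative. In the P24 bulk set (0.0617 to 0.291) and in Input (-0.0933 to 0.179) the numbers were not taken to pair the mice. The level of the targeted gene is not reported here.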

Additional observations from a re-analysis of the deposited data

Results flagged for a closer look

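Of the 44 groups of 4 mice examined (the level of each of the 10 genes and the ratio of Gstm5 to Gstm1), 2 held a mouse far from the others by Dixon's criterion, which chance alone meets in about 1 of 20 groups. Gstm3 was at 9.88 CPM in the P24 bulk library of cKO mouse 3, where the other 3 cKO mice lay at 6.21 to 6.67 CPM. Gstm5 was at 63.5 CPM in the P17 bulk library of Ctrl mouse 1, where the other 3 Ctrl mice lay at 83.6 to 86.7 CPM. Groups of 3 mice were not examined in this way.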

How the results depend on the processing

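Outside the left-out libraries, 516 gene values kept their direction and their side of the threshold under the other settings, 18 gained a call, 5 lost one and 1 changed sign. At P17 DESeq2, the likelihood ratio test, no filter and the replicate block each called 1 member (Gstm1), against 0. With the replicate block, 1 member was called in Input (Gstm3 lost, 1.87, adjusted p = 0.118 in edgeR) and 1 in the age interaction (Gstm5, -0.42, adjusted p = 0.0445 in edgeR), and no other call changed. For the fraction interaction DESeq2 and the likelihood ratio test called 3 and no filter 1 (Gsta4). Gstm2 in Input passed by DESeq2 (adjusted p = 0.0327), the likelihood ratio test (0.00742) and the single fit (0.00944), and Gstm7 was enriched in IP by library size alone (0.0383 in Ctrl and 0.0438 in cKO mice, edgeR) and, in cKO mice, by the single fit (0.0209). Without the filter Gstm5 at P17 was at -0.0046.

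Leaving out 1 library gave 3 to 5 members at P24, 0 to 2 in Input and 0 to 3 in the fraction interaction. Log2 values changed sign between -0.042 and 0.25 for Gstm6, -0.0022 and 0.11 for Gsta4 and -0.13 and 0.18 for Gstt1 at P24, -0.095 and 0.053 for Gstm5 and -0.051 and 0.090 for Gstp1 at P17, -0.031 and 0.23 for Gstm4 and -0.12 and 0.19 for Gstm6 in Input, and -0.071 and 0.17 for Gstm7 and -0.0065 and 0.30 for Gstt1 in the age interaction.

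Over all genes, calls at P24 were 388, and 598 by DESeq2, 619 by the likelihood ratio test and 618 without the filter. In the same order they were 20, 41, 61 and 55 at P17, 26, 127, 137 and 112 in Input, 15, 284, 219 and 189 for the fraction interaction and 11, 54, 52 and 62 for the age interaction. The replicate block gave 109, 8, 6 and 55 calls in these last 4, and a single fit 127 in Input and 1684 against 4782 in IP. Leaving out 1 library gave 216 to 950 calls at P24, 11 to 19 at P17, 2633 (without IP cKO mouse 2) to 4810 in IP, 4 to 112 in Input, 4 to 149 for age and 3 to 432 for fraction. With library size alone the fraction interaction had 5 higher and 7 lower genes, against 10 and 5. The causes were not tested. Bulk depth limits Gstm2, Gstm3, Gstm4, Gstm6, Gstm7 and Gstt1, with at most 142 counts a library.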
